A study of Homo sapiens with 7 samples.

Results

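IL20RB, a receptor chain that lost nearly all of its transcript in dasatinib resistant K562 cells, was examined together with 9 cytokine receptor genes of blood cells. The 10 genes were chosen by name from the 25702 genes counted, and IL20RB was selected on its loss in the early stage lines, so that its values in that contrast are a description and support nothing. The other genes are IL10RB, IFNGR1, EPOR, IL4R, IL2RG, IL6ST, CSF2RB, CSF2RA and IL3RA. RNA was sequenced from 7 lines of K562, a line established from chronic myeloid leukemia in which the BCR::ABL1 fusion is active, with 1 library per line. The drug naive line and the line cultured in parallel with DMSO vehicle formed the control group. Dasatinib, a tyrosine kinase inhibitor, had been raised stepwise over about 11 months, and the lines growing in 10, 15 and 25 nM (DasR, dasatinib resistant) formed the early stage group and those in 50 and 200 nM the late stage group. The labels name no transgene, deletion or further agent in any line. The lines are intermediates of a single dose escalation and not separate cultures taken through it again, so that dose adds to the spread between the lines of a group, and p-values measure only the spread between these libraries. The groups had been drawn from the clustering of the same libraries. Total counts were 21007761 for the drug naive and 24037893 for the DMSO line, 27808639, 27844799 and 20059656 for the 10, 15 and 25 nM DasR lines, and 20827519 and 21588772 for the 50 and 200 nM DasR lines.

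Cytokine receptors of the type I and type II families have no kinase of their own. A ligand draws receptor chains together, JAK kinases bound to their tails are activated, and STAT factors are phosphorylated and move to the nucleus, where they also induce SOCS proteins that restrain the pathway. In blood cell precursors these receptors carry signals for survival, growth and maturation, and in K562 the BCR::ABL1 kinase can phosphorylate STAT5 without a ligand. Several chains are shared. IL20RB pairs with IL20RA to bind IL-19, IL-20 or IL-24, and with IL22RA1 to bind some of these ligands. IL10RB serves IL-10, IL-22 and interferon lambda, IL2RG serves the IL-2 family, and CSF2RB serves IL-3, IL-5 and GM-CSF. IL6ST (gp130) serves IL-6, LIF and related ligands.

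The bases before the transcription starts of IL20RB and EPOR are shown because these genes had the deepest loss and, at the early stage, the one gain past the threshold. They come from the RefSeq promoter table (GRCh38.p14), were matched letter for letter to GRCh37, and are written 5′ to 3′ on the strand of the gene in lower case. Capitals mark a match to AGATAA or TGATAA on either strand, a core that GATA factors bind. For IL20RB the bases at chr3:136676575-136676736 (+ strand) are given, which begin 250 bases before the RefSeq start. By the annotation used for the gene span below they lie in an intron of IL20RB, since that span begins upstream of the RefSeq start. For EPOR, where the whole window lies in annotated exons of EPOR or of the overlapping gene RGL3, 30 bases at chr19:11495051-11495080 (- strand) are given.
IL20RB: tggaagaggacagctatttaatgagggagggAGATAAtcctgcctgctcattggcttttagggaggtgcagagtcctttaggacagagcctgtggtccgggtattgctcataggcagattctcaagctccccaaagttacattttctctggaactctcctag
EPOR: cccgccaggcacTTATCTctacccaggctg
The IL20RB match began 219 bases before the start, and the EPOR match, which reads AGATAA on the opposite strand, began 78 bases before it. Of 35116 RefSeq promoters, 14.6% held AGATAA or TGATAA in a window of the same length, so that such a match is common. TTCNNNGAA, the palindrome bound by STAT factors, occurred in 6.57% of these promoters and in neither window. Among the other genes it was found in the window of IL3RA, at 199 and 179 bases before the start, and CSF2RB had no entry in the table. A match of letters says nothing on whether a factor binds there.

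IL20RB (GRCh37 chr3:136665072-136729927, + strand, 7 exons) was counted 1409 times in drug naive and 1636 times in DMSO treated cells, against 35, 45 and 40 counts in the 10, 15 and 25 nM DasR lines and 42 and 43 counts in the 50 and 200 nM DasR lines. In CPM (counts scaled to the library total), these were 67.1 and 68.1 in the controls. The early stage lines had 1.26, 1.62 and 1.99 CPM, and the late stage lines 2.02 and 1.99 CPM. Every DasR line was thus far below both controls, and no line fell in between. The mean was 67.6 ± 0.699 CPM (SD, n = 2) for control, 1.62 ± 0.368 CPM (SD, n = 3) for early stage and 2.004 ± 0.0175 CPM (SD, n = 2) for late stage, so that 2.40% and 2.97% of the control level was left. The control mean was 41.6-fold above the early stage mean and 33.7-fold above the late stage mean. The transcript remained detected in every DasR line, well above the 3 counts taken here as the floor. Exact Poisson 95% intervals, which cover counting error only, overlapped between each DasR line and the next in order, so the 5 resistant lines could not be ranked. The interval of the highest of them, at 50 nM, ended at 2.73 CPM and that of the drug naive line began at 63.6 CPM.

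The fitted log2 fold change of IL20RB was -5.41 (SE 0.179) for early stage against control. For late stage against control, which uses resistant lines that took no part in choosing the gene but the same controls, it was -5.09 (SE 0.210, FDR = 0.000157, edgeR, quasi-likelihood, adjusted by Benjamini-Hochberg over 10452 genes). The 2 controls both defined the loss the gene was chosen for and alone brought it past the expression filter, so that this FDR is not independent of the choice. Late against early stage differed by 0.31 on the log2 scale (FDR = 0.313). Over 14 other settings, which included leaving out each library, the log2 fold change was between -5.57 and -5.25 (early stage) and between -5.11 and -5.04 (late stage). Among the 10 genes IL20RB also had the highest control level per length of transcript, 35.0 CPM per kb, ahead of IL10RB at 19.0 and IFNGR1 at 14.4 CPM per kb. At the early stage it was down to 0.841 CPM per kb, beside CSF2RA at 0.985 CPM per kb, while EPOR, at 16.4 CPM per kb, had become the highest of the 10.

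The partners and ligands of IL20RB were near or at 0. IL20RA, its partner for IL-19, IL-20 and IL-24, had 1 count in the 10 nM line and 0 elsewhere, and IL22RA1, the other partner, had 1 count in each of the 10 and 15 nM lines and 0 elsewhere. IL20 had 0 counts in all 7 libraries, IL19 at most 2, and IL24 at most 4. At this depth neither a complete IL-20 receptor nor its ligands were therefore detectable at the transcript level beyond a few counts, in controls or in DasR lines. IL22RA2, a soluble receptor that binds IL-22, had 1 to 3 counts.

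Those genes beside IL20RB on chromosome 3 that had counts in the controls did not share its loss. Upstream, NCK1, an adaptor protein whose annotated end overlaps the first bases of IL20RB, had 25.7 and 22.3 CPM among controls, 20.3, 20.8 and 18.1 CPM at the early stage and 20.4 and 21.4 CPM in the late stage lines (FDR = 0.0897 and FDR = 0.251). SLC35G2 was between 2.46 and 3.43 CPM in all lines. STAG1, a cohesin subunit, rose in the early stage lines from 23.9 and 28.4 CPM to 43.1, 46.0 and 44.5 CPM (log2 fold change 0.75, FDR = 0.00386), and in the late stage lines was at 24.4 and 19.5 CPM (FDR = 0.177). On the other side SOX14 had 0 counts in all libraries and CLDN18 at most 6, with 0 in both controls, so that neither could show a loss. DZIP1L, the next gene, had 0.524 and 0.458 CPM in the controls and 2.52, 3.23, 3.19 and 2.88 CPM from 10 to 50 nM, but 0.232 CPM at 200 nM. An antisense gene, IL20RB-AS1, overlaps IL20RB, and the strand setting of the counting was not given in the sources used here, so reads of the pair cannot be told apart.

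**Figure D1:**
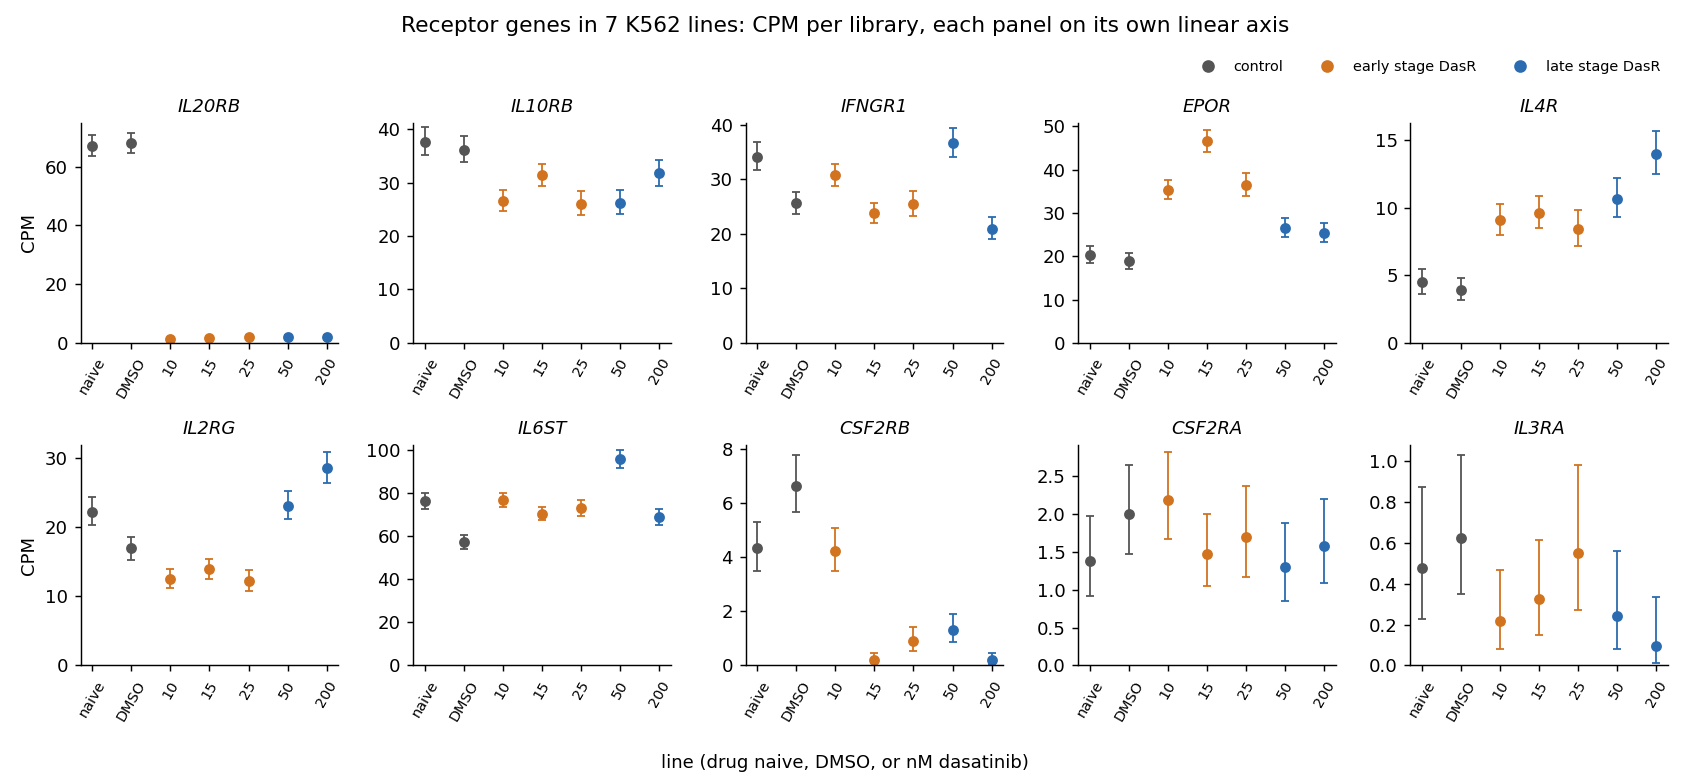
CPM (y axis, linear from 0 and separate for each panel) of the 10 receptor genes in the 7 lines (x axis, drug naive, DMSO or nM dasatinib), with points for single libraries and bars for exact Poisson 95% intervals. IL20RB was at 67.1 and 68.1 CPM in the controls and at or below 2.02 CPM in all DasR lines, while EPOR was highest in the 3 early stage lines and IL4R highest at 200 nM.

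Of the 10 genes, 7 reached 10 CPM in at least 2 libraries and were tested. IL20RB is left aside here, and of the 6 others 1 passed an FDR of 0.005 in the early stage lines, EPOR upward, where 18% of all genes tested passed (7.92% higher and 10.1% lower). At the late stage 1 of the 6 passed, IL4R upward, against 7.98% of all genes (3.42% higher and 4.56% lower). At an FDR of 0.05, 46.5% of all genes passed for early stage and 33.9% for late stage, and among the 6 EPOR, IL4R, IL2RG and IL10RB passed for early stage and IL4R for late stage. With IL20RB, the 7 genes had a median log2 fold change of -0.18 (early) and 0.28 (late), beside 0.0031 and -0.0036 over all genes tested. Some listed genes met the filter through 1 group alone, IL20RB, IL23R, IL23A and SOCS7 through the controls and IL4R through the late stage lines, which favours a difference in that group. Each of them was therefore also fitted with a filter of 1 CPM in 2 libraries, which at least 6 of the 7 libraries met for each gene. Between late and early stage lines 0% of all genes passed an FDR of 0.005 with edgeR (0 of 10452, with 3450 at an unadjusted p under 0.05, 0 by limma voom and 1135 by DESeq2). At an FDR of 0.05, 12.7% of all genes passed, and among the 7 IL2RG was higher and EPOR lower at the late stage.

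EPOR (chr19:11487883-11495018, - strand), the erythropoietin receptor, which carries the survival signal of red cell precursors through JAK2 and STAT5, had 20.3 and 18.9 CPM in the controls. It was at 35.3, 46.6 and 36.5 CPM in the early stage lines and at 26.6 and 25.4 CPM in the late stage lines. The 3 groups did not overlap, with the early stage lines highest and the controls lowest. Early stage against control, EPOR rose by 0.99 on the log2 scale (SE 0.149, FDR = 0.00229), and late stage against control the difference was 0.39 (FDR = 0.0999). The late stage level was 0.61 below the early stage level on the log2 scale (difference -0.61, SE 0.146, FDR = 0.0393), which passed an FDR of 0.05 but not 0.005. The early stage call was lost without either control line or the 25 nM line, with an FDR of at most 0.0185, and without the 200 nM line the stage difference had an FDR of 0.194. The ligand gene EPO was between 0 and 0.208 CPM, which is 5 counts at most. EPOR overlaps RGL3 in the annotation, and a share of its reads may belong to that gene.

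Most erythroid marker genes were, like EPOR, higher in the early stage lines. The summed level of 10 such genes was 3987 and 3383 CPM among controls, 8178, 8565 and 6659 CPM at the early stage, and 5248 and 4552 CPM in the late stage lines. In the early stage lines 8 of the 10 were above both controls in every line, beside 35.9% of all genes tested, and 8 of 10 were higher at an FDR of 0.05, beside 22.6% of all genes. Of these HBG1, a fetal globin (log2 fold change 1.24, FDR = 0.0024), and TFRC, the transferrin receptor (1.13, FDR = 0.000677), passed 0.005. The most abundant, HBG2, had 1208 and 915 CPM in the controls against 3038, 2283 and 1916 CPM at the early stage (log2 fold change 1.17, FDR = 0.00658). GATA1, the factor that drives the erythroid programme, did not pass (-0.18, FDR = 0.283). It had 201.3 and 217.5 CPM in the controls and 234.8 and 294.7 CPM in the late stage lines, and from early to late stage it went up (0.49, FDR = 0.0447) where EPOR went down (-0.61, FDR = 0.0393). HBE1, an embryonic globin, was at 472.6 CPM at 10 nM, below both controls (651.3 and 599.7 CPM), and at 1651 and 720.0 CPM at 15 and 25 nM (FDR = 0.362). In the late stage lines TFRC alone passed 0.005 (0.85, FDR = 0.00373). ITGA2B, the most abundant of 5 megakaryocyte markers, went the other way, with 63.9 and 52.5 CPM among controls, 13.4, 5.96 and 13.2 CPM at the early stage (log2 fold change -2.44, FDR = 0.00234) and 56.8 and 99.2 CPM in the late stage lines. GP1BA had 5.62 and 7.28 CPM in the controls, between 2.34 and 2.88 CPM in the early stage lines and 3.31 and 2.78 CPM in the late stage lines, so that it was below both controls in every DasR line. GP9 and PF4, which define platelets and their precursors, had 3 counts or fewer everywhere. The summed megakaryocyte level was 69.9 and 59.8 CPM among controls, 16.3, 8.51 and 15.6 CPM at the early stage and 60.2 and 102 CPM in the late stage lines. The part of these markers in the EPOR values was not tested, and in RNA of whole cultures fewer cells of a kind and less RNA per cell cannot be told apart.

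IL4R (chr16:27324989-27376099, + strand), the chain that binds IL-4 and, with IL13RA1, IL-13, had 4.48 and 3.91 CPM among controls, 9.10, 9.63 and 8.43 CPM at the early stage and 10.7 and 14.0 CPM in the late stage lines. All DasR lines were above both controls, and the 200 nM line was the highest. In the late stage lines IL4R rose by 1.53 on the log2 scale (SE 0.228, FDR = 0.00373). It met the 10 CPM filter through these 2 lines alone, and with the filter of 1 CPM the value was 1.57 (SE 0.208, FDR = 0.00297). This call was lost in 9 of 14 other settings, among them each of the 7 that leave out 1 library, where the FDR was at most 0.0226 and the log2 fold change between 1.33 and 1.71 over all settings. In the early stage lines the log2 fold change of IL4R was 1.09 (SE 0.212, FDR = 0.00582), short of the threshold. It passed with the filter of 1 CPM (1.10, FDR = 0.00446) and with DESeq2 (1.10, FDR = 0.000191), and late against early stage had an FDR of 0.173. The ligand genes IL4 and IL13 were at 3 counts or fewer in every library.

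IL2RG (chrX:70327254-70331958, - strand), the common gamma chain, had 22.2 and 16.9 CPM among controls, 12.5, 13.9 and 12.2 CPM at the early stage, and 23.1 and 28.5 CPM in the late stage lines. The early stage lines were thus below both controls and the late stage lines above both. However, the Poisson intervals of the 50 nM and drug naive lines overlapped, as did those of the 15 nM and DMSO lines. Neither difference from the controls passed 0.005 (log2 fold change -0.62, SE 0.170, FDR = 0.0212 for early stage and 0.37, FDR = 0.159 for late stage). The step from early to late stage was 0.99 (SE 0.169, FDR = 0.0193), and 0.85 with an FDR of 0.109 without the 200 nM line. The late stage lines also had the highest summed level of 6 T cell markers, 32.8 and 33.5 CPM, against 17.4 and 9.07 CPM in the controls and 6.26, 5.10 and 12.1 CPM at the early stage. Most of that sum was CD3D (22.6 and 29.6 CPM in the late stage lines). In the early stage lines 3 of the 6 (CD3E, CD3G and CD2) were above both controls in every line, beside 35.9% of all genes tested. Of the 6, 0 were below in every line. None of the 3 reached the 10 CPM filter, and CD2 had 0 counts in both controls and at most 3 at the early stage. CD3E had 0.143 and 0.208 CPM in the controls, 1.19, 1.40 and 0.947 CPM at the early stage, 1.10 CPM at 50 nM and 0.139 CPM at 200 nM. CD3G had 0.524 and 0.458 CPM in the controls, 1.19, 0.646 and 2.59 CPM at the early stage and 8.74 and 3.29 CPM in the late stage lines. CD2 and CD8A, also in this list, were at 3 counts or fewer in every library. The part of the T cell markers in the IL2RG values was not tested. JAK3, the kinase that binds the common gamma chain, stayed between 2.01 and 2.88 CPM.

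The remaining tested genes varied little between groups. IL10RB (chr21:34638672-34683725) had 37.7 and 36.2 CPM among controls, 26.6, 31.4 and 26.0 CPM at the early stage and 26.2 and 31.8 CPM in the late stage lines. All DasR lines were below both controls, though the Poisson intervals of the 200 nM and DMSO lines overlapped. Neither difference passed 0.005 (log2 fold change -0.41, FDR = 0.0344 and -0.37, FDR = 0.0831). IFNGR1 (chr6:137518620-137540586, - strand), the ligand binding chain for interferon gamma, had 34.2 and 25.6 CPM among controls, 30.8, 23.8 and 25.5 CPM at the early stage and 36.7 and 20.98 CPM in the late stage lines. The 50 nM line was the highest and the 200 nM line the lowest, so that the groups overlapped (FDR = 0.594 and FDR = 0.857). IL6ST (chr5:55230923-55290850, - strand) had 76.1 and 57.1 CPM among controls, 76.6, 70.3 and 73.0 CPM at the early stage and 95.5 and 68.7 CPM in the late stage lines, and the groups again overlapped (FDR = 0.618 and FDR = 0.314). The annotation also holds a fusion of IFNAR2 and IL10RB that spans IL10RB, and counts of these genes could be split between them.

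The receptors for IL-3 and GM-CSF were scarce, and none of their 3 genes reached the expression filter. CSF2RB (chr22:37309670-37336481, + strand), their common beta chain, had 4.33 and 6.66 CPM in the controls, 4.24 CPM at 10 nM, 0.216 CPM at 15 nM, 0.897 CPM at 25 nM, 1.30 CPM at 50 nM and 0.185 CPM at 200 nM. The 10 nM line was thus near the drug naive line and the other 4 DasR lines below it. With a filter of 1 CPM in 2 libraries its log2 fold change was -1.60 (FDR = 0.238) for early stage and -2.87 (FDR = 0.124) for late stage. CSF2RA (chrX:1387693-1429274), the GM-CSF binding chain, had 1.38 and 2.00 CPM among controls, 2.19, 1.47 and 1.70 CPM at the early stage and 1.30 and 1.58 CPM in the late stage lines, and the Poisson interval of each line overlapped the next in order. IL3RA (chrX:1455509-1501582), the IL-3 binding chain, had 0.476 and 0.624 CPM among controls, 0.216, 0.323 and 0.548 CPM at the early stage and 0.240 and 0.0926 CPM in the late stage lines, with neighbouring intervals that also overlapped throughout. CSF2RA and IL3RA have a second copy in the part of the sequence shared by X and Y, so that their counts depend on how reads with more than 1 location were handled and are uncertain.

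**Figure D2:**
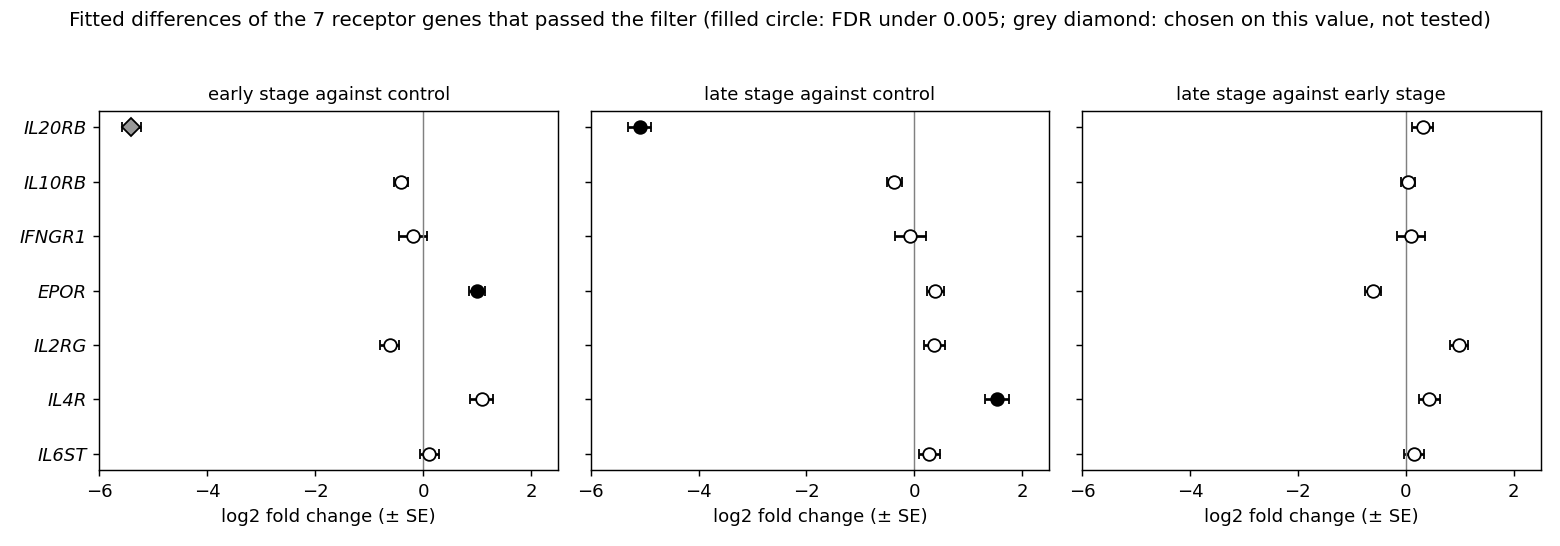
Fitted log2 fold change (x axis) with its SE for the 7 receptor genes that passed the filter (y axis), in the 3 comparisons, where filled circles passed an FDR of 0.005. IL20RB lay at -5.41 and -5.09 against control, with the first value, drawn as a grey diamond, being the one it was chosen on, while EPOR passed for early stage and IL4R for late stage.

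The wider set of type II receptor chains, to which IL20RB and IL10RB belong, was mixed. Of 8 further chains 5 were tested, and in the early stage lines 1 rose and 1 fell at an FDR of 0.005 (median log2 fold change 0.10), beside 7.92% and 10.1% of all genes, while in the late stage lines 0 passed with edgeR, DESeq2 or limma voom, beside 7.98% of all genes with edgeR (1 of the 5 had an unadjusted p under 0.05). IFNAR1, a chain of the type I interferon receptor and the most abundant of the list, rose from 74.2 and 80.3 CPM to 117.5, 134.7 and 118.6 CPM in the early stage lines (log2 fold change 0.66, FDR = 0.00188) and was at 92.6 and 86.3 CPM in the late stage lines (FDR = 0.182). IL10RA, which binds IL-10 and signals with IL10RB, fell from 17.6 and 15.3 CPM to 6.37, 6.03 and 8.18 CPM (log2 fold change -1.28, FDR = 0.0026), but had 21.5 and 29.0 CPM in the late stage lines, above both controls (FDR = 0.0725). IFNGR2 (0.60, FDR = 0.00871) and IFNAR2 (0.10, FDR = 0.511) did not pass in the early stage lines. IFNAR2, IL10RB, IFNAR1 and IFNGR2 lie in this order on chromosome 21, and within that cluster IFNAR1 alone passed 0.005. Both calls were lost without either control line and without the 15 or 25 nM line (count of 0), and that of IL10RA also without the 10 nM line (count of 1).

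Of 27 further type I chains, 7 were tested. In the early stage lines 2 rose and 2 fell at an FDR of 0.005, beside 7.92% and 10.1% of all genes, with a median log2 fold change of -0.05, and in the late stage lines 1 rose, beside 3.42% of all genes (median 0.49). LIFR, the chain that pairs with IL6ST for LIF, rose from 17.1 and 28.0 CPM in the controls to 134.0, 163.3 and 126.5 CPM in the early stage lines (log2 fold change 2.64, FDR = 0.00319). Its late stage levels were 98.1 CPM at 50 nM and 36.2 CPM at 200 nM (1.56, FDR = 0.0319), so that these 2 lines differed widely. IL27RA, which also pairs with IL6ST, had 20.7 and 19.0 CPM among controls, 50.0, 46.1 and 48.5 CPM at the early stage (1.26, FDR = 0.000733) and 45.0 and 35.4 CPM in the late stage lines (0.99, FDR = 0.00362). IL23R, the specific chain of the IL-23 receptor, fell from 50.4 and 49.2 CPM to 5.90, 1.54 and 2.94 CPM (log2 fold change -3.85, FDR = 0.0019) and had 8.11 and 3.20 CPM in the late stage lines (-3.16, FDR = 0.00935). It met the 10 CPM filter through the controls alone. With the filter of 1 CPM the early stage value was -3.84 (FDR = 0.00208) and the late stage value -3.13 (FDR = 0.0107). CRLF3, an orphan of the family, fell by less (-0.68, FDR = 0.00179). LEPR, the leptin receptor and the most abundant chain of the list, ranged from 154.5 CPM at 15 nM to 356.1 CPM at 200 nM and did not pass (FDR = 0.874 and FDR = 0.188). The early stage count of 4 was 0 without either control line, 2 without the 10 or the 15 nM line, and 1 without the 25 nM line. The late stage count of 1 was 0 without either control line, without any 1 of the early stage lines or without the 50 nM line, and 2 without the 200 nM line, where LIFR passed as well.

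Ligand genes were scarce. Of 35 listed, 16 had 3 counts or fewer in every library, 5 had none at all, and 1 was abundant enough to be tested. This was IL23A, which encodes the specific subunit of IL-23, the ligand of IL23R. It had 25.3 and 19.97 CPM among controls, 1.55, 0.611 and 1.89 CPM at the early stage and 3.22 and 6.02 CPM in the late stage lines. The ligand gene and its receptor chain were thus both far below the controls in every DasR line (IL23A log2 fold change -4.10, FDR = 0.000817 for early stage and -2.32, FDR = 0.0119 for late stage). IL23A met the 10 CPM filter through the controls alone. With the filter of 1 CPM its early stage value was -4.09 (FDR = 0.0009) and its late stage value -2.28 (FDR = 0.0134). Without either control line the early stage FDR of IL23A was above 0.005, at most 0.00982. IL12RB1, the other chain of the IL-23 receptor, was between 0.399 and 0.864 CPM. The next most abundant ligand genes were CLCF1, from 4.49 to 9.08 CPM, and CTF1, from 2.69 to 6.24 CPM, which both signal through IL6ST and LIFR. CLCF1 was higher in every DasR line than in both controls, and CTF1 lower. With edgeR and the filter of 1 CPM, CLCF1 had an FDR of 0.187 for early stage and 0.0148 for late stage. In the same fits CTF1 had an FDR of 0.0186 for early stage and 0.0292 for late stage, so neither gene passed 0.005. With the filter of 1 CPM in 2 libraries, TSLP also passed for early stage. LIF had 0.0952 and 0.250 CPM among controls, 1.15, 1.72 and 1.84 CPM at the early stage and 5.47 and 4.17 CPM in the late stage lines, and met that filter through the DasR lines alone, so that no test is given. TSLP, a cytokine of epithelia, had 6.86 and 4.29 CPM among controls, 0.360, 0.0718 and 0.748 CPM at the early stage and 2.02 and 2.97 CPM in the late stage lines (log2 fold change -3.89, FDR = 0.00365 for early stage).

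**Figure D3:**
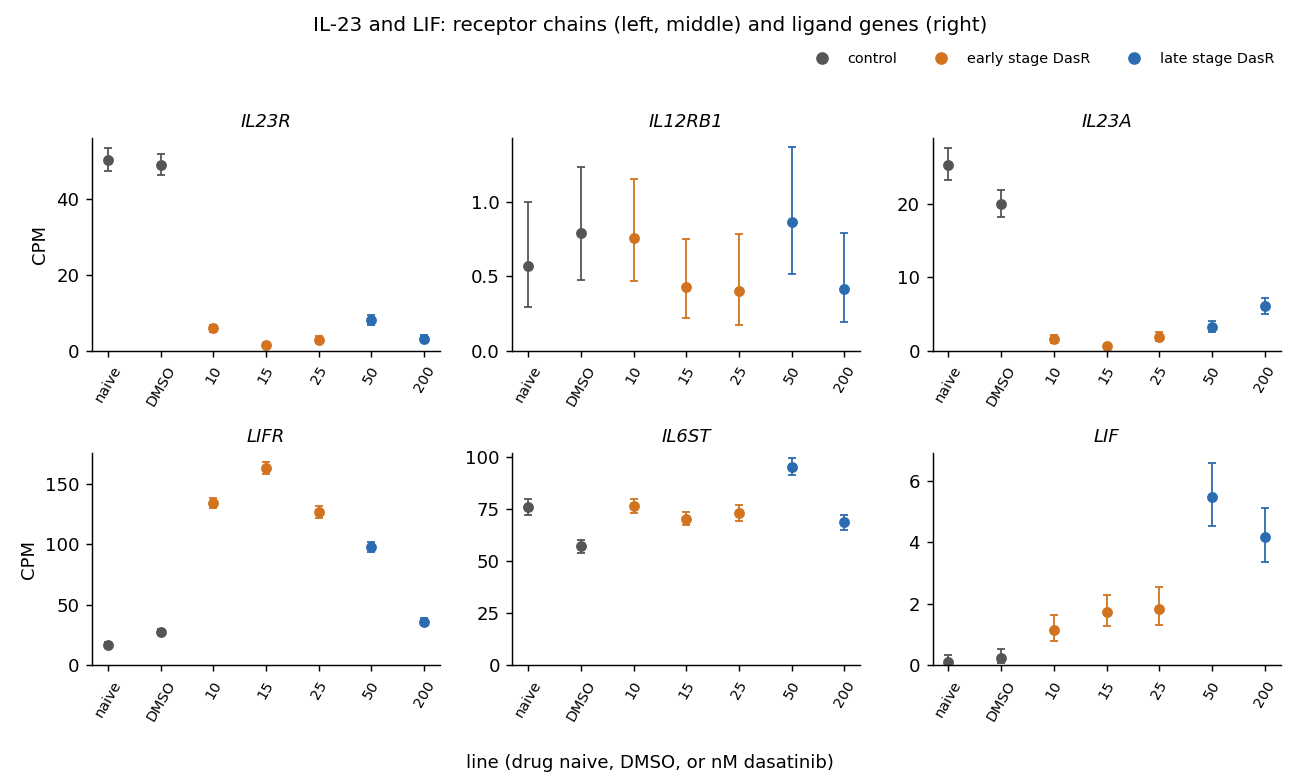
CPM (y axis, linear from 0) of IL23R, IL12RB1 and IL23A (top) and of LIFR, IL6ST and LIF (bottom) in the 7 lines (x axis), with exact Poisson 95% intervals as bars. IL23R and IL23A were at or below 8.11 and 6.02 CPM in all DasR lines, LIFR was highest in the early stage lines, and LIF highest in the late stage lines.

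Genes of the shared signal path below these receptors fell in the early stage lines more often than they rose. Of 10 JAK and STAT genes 8 were tested, and 5 fell and 0 rose at an FDR of 0.005 with edgeR, beside 10.1% of all genes that were lower, with 6 of the 8 at an unadjusted p under 0.05 and a median log2 fold change of -0.73. STAT5B, the most abundant of them, had 380.2 and 447.4 CPM in the controls against 208.1, 201.0 and 208.4 CPM at the early stage (log2 fold change -1.02, SE 0.0921, FDR = 0.000412). STAT5A had 311.2 and 426.5 CPM and then 176.2, 142.6 and 164.6 CPM (-1.21, FDR = 0.0013), and STAT3 327.7 and 289.6 CPM and then 120.2, 97.4 and 126.4 CPM (-1.45, FDR = 0.000761). In these 3 genes each early stage line was below both controls. JAK1, a kinase of many type I and type II receptor complexes (-0.77, FDR = 0.00171), and STAT2, used by interferon receptors (-0.62, FDR = 0.00164), also fell, while JAK2, the kinase of EPOR, did not change detectably (-0.07, FDR = 0.664). JAK3 and STAT4 were too low to be tested, with STAT4 at most at 0.834 CPM. The count of 5 was 1 without the drug naive line, 3 without the DMSO line, 3 without the 15 nM line and 2 without the 25 nM line, with STAT5B passing in each.

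In the late stage lines STAT5B alone was past the threshold, 1 of 8 beside 4.56% of all genes that were lower. It had 205.0 and 234.1 CPM (log2 fold change -0.94, FDR = 0.00141), and the median of the list was -0.42. Without either control line, without the 25 or the 50 nM line, or with only the groups compared in the fit, STAT5B did not pass, with an FDR of at most 0.00879 over all settings. At an FDR of 0.05, STAT2 (-0.49, FDR = 0.00887), JAK1 (-0.59, FDR = 0.0101) and STAT5A (-0.77, FDR = 0.0148) were lower as well, while 33.9% of all genes passed that threshold in either direction. STAT3 was at 210.9 CPM at 50 nM and 279.1 CPM at 200 nM, both below the controls and above the early stage lines (-0.36, FDR = 0.154). The difference between late and early stage was 1.09 for STAT3 (FDR = 0.0167), 0.44 for STAT5A (FDR = 0.105) and 0.09 for STAT5B (FDR = 0.557).

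Feedback genes went both ways. Of 18 listed 16 were tested, and in the early stage lines 2 rose and 3 fell, beside 7.92% and 10.1% of all genes (median log2 fold change -0.04). SOCS2, a target of STAT5, had 143.6 and 183.5 CPM in the controls against 89.5, 89.2 and 92.7 CPM at the early stage (-0.87, FDR = 0.00115). SOCS7 had 18.6 and 16.0 CPM and then 5.75, 5.82 and 5.14 CPM (-1.65, FDR = 0.000775). SOCS7, among the 3 that fell, met the 10 CPM filter through the controls alone, so that the filter favoured its fall. With the filter of 1 CPM its value was -1.64 (FDR = 0.000684). SH2B3, an adaptor that restrains JAK2, had 174.6 and 207.7 CPM and then 93.96, 74.99 and 109.6 CPM (-1.06, FDR = 0.00434), but 208.4 and 290.5 CPM in the late stage lines. SOCS4 (0.78, FDR = 0.00292) and SOCS5 (0.83, FDR = 0.00334) rose. PTPN11, the phosphatase SHP2 and the most abundant of the list, was between 295.4 and 370.6 CPM, and PTPN1 between 114.6 and 146.5 CPM, and neither passed. CISH, another STAT5 target, did not pass (-0.18, FDR = 0.468). In the late stage lines 0 feedback genes passed with edgeR beside 7.98% of all genes (6 of the 16 had an unadjusted p under 0.05, DESeq2 called 3 and limma voom 0), and the median was 0.13. The early stage count of 5 was 1 without the drug naive line, 2 without the DMSO line, 3 without the 10 nM line, 2 without the 15 nM line and 0 without the 25 nM line.

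**Figure D4:**
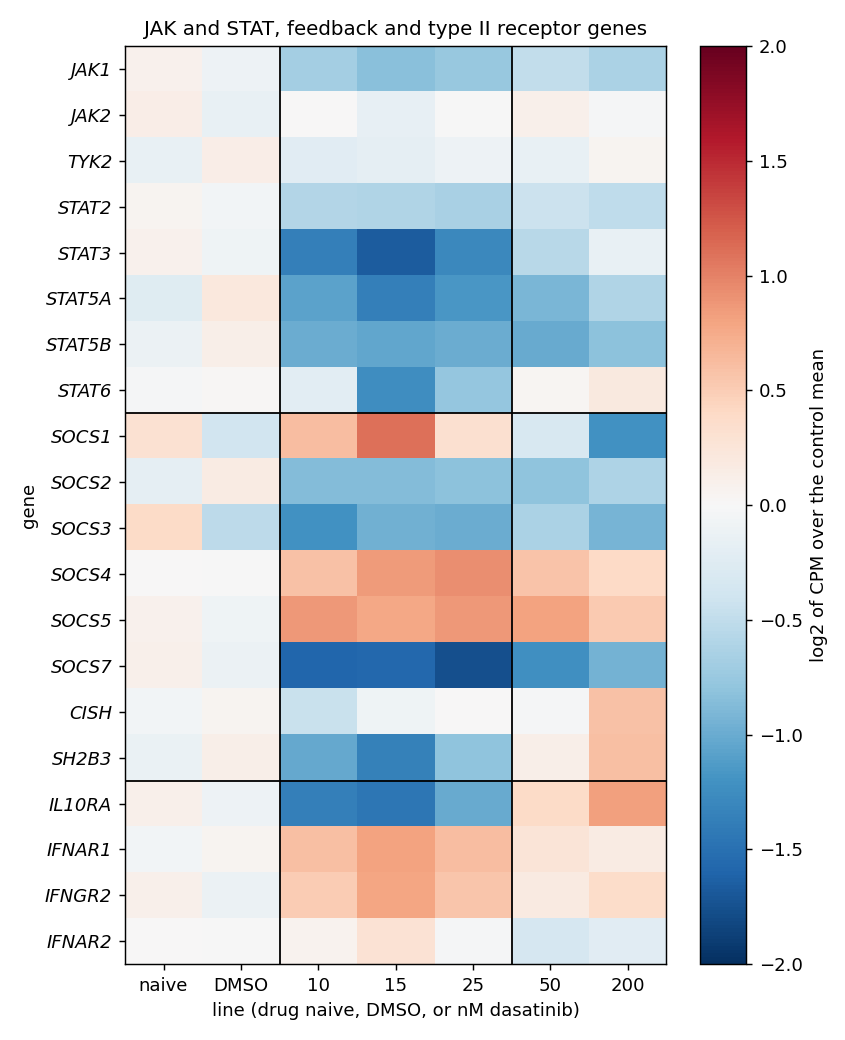
Colour gives log2 of CPM over the control mean, from blue (lower) to red (higher), for JAK and STAT genes (top block), feedback genes (middle) and type II receptor chains (bottom) in the 7 lines (x axis). STAT3, SH2B3 and IL10RA were below the controls in the 3 early stage lines. In both late stage lines they were higher than at the early stage, though STAT3 stayed below both controls. STAT5B was low in all 5 DasR lines.

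The genes whose pattern was most like that of IL20RB over the 7 libraries were AAK1, CXCL11, S100P, SRPRA and SCN4A, each with a Pearson r of 0.996 on log2 CPM, out of 10451 genes compared. The 7 values fall into the 2 controls and the 5 DasR lines, and the libraries are shared between genes, so that r describes this division, and 27 genes (0.258%) had an r above 0.99. AAK1, a kinase of clathrin coated vesicles, had 179.2 and 170.6 CPM in the controls and between 37.3 and 47.3 CPM in the DasR lines. CXCL11, a chemokine, had 13.2 and 13.7 CPM and at most 0.144 CPM in the DasR lines, and S100P, a calcium binding protein, 21.5 and 18.4 CPM and at most 0.741 CPM. SRPRA, a receptor of the signal recognition particle, went from 257.2 and 257.1 CPM to between 118.5 and 140.6 CPM, and SCN4A, a sodium channel, from 16.4 and 19.3 CPM to between 1.55 and 1.83 CPM. The most opposite genes were ARHGEF10 (r = -0.997), TRIAP1 (r = -0.996) and COMMD9 (r = -0.996). ARHGEF10 had 13.5 and 12.4 CPM in the controls and between 51.3 and 58.0 CPM in the DasR lines. With a prior count of 0.5 in place of 2, 3 of the 5 most alike genes were the same, and 0 of the 5 were among the 6 genes whose Spearman rho was at its maximum of 1. Among the 6 other tested genes of the 10, IL10RB was nearest, with an r of 0.856, and IL4R most opposite, with an r of -0.917, while IL23R, outside the 10, had an r of 0.921.

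Of 6 markers of keratinocytes and epithelia, where IL20RB is known to be expressed, 4 were at or near 0. KRT5, KRT14, KRT1 and CDH1 had 3 counts or fewer in every library, while EPCAM, the most abundant, was between 50.9 and 75.3 CPM in all lines, and TP63 had 2.48 and 2.58 CPM in the controls, between 0.399 and 1.34 CPM from 10 to 50 nM and 26.1 CPM at 200 nM. Their summed level was 64.4 and 78.0 CPM among controls, 71.3, 56.4 and 56.1 CPM at the early stage and 52.2 and 80.0 CPM in the late stage lines. The part of EPCAM and TP63 in the IL20RB values was not tested. The summed myeloid level was 97.0 and 81.5 CPM among controls, 130, 39.2 and 62.0 CPM at the early stage and 132.9 and 137.1 CPM in the late stage lines, led by LYZ, with MPO and ELANE at 3 counts or fewer. ITGAM did not follow that sum, with 12.95 and 6.95 CPM in the controls, 6.04, 1.76 and 1.15 CPM at the early stage and 1.44 and 0.741 CPM at the late stage. The B cell markers MS4A1, CD79A and CD79B summed to between 0.150 and 0.381 CPM, with MS4A1 at 3 counts or fewer. Fibroblast markers, led by COL1A1, summed to 5.05 and 19.6 CPM in the controls and between 5.05 and 11.2 CPM in the DasR lines. COL1A2 made up most of the DMSO sum, with 14.3 CPM there, 2.00 CPM in the drug naive line and at most 0.432 CPM in the DasR lines, where COL1A1 was between 3.52 and 9.52 CPM.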

How the data were processed

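The authors sequenced 7 K562 libraries as paired reads of 75 bases from a directional library depleted of ribosomal RNA. Reads were aligned to hg19 with STAR, and the counts of reads per gene were deposited by the authors without normalization. The submitters' processing notes also name featureCounts and edgeR. The deposited results of the authors' own comparisons (fold changes, average expression and significance) were not used. Gene length was taken from transcripts of a GRCh37 annotation, and symbols from RefSeq (23696 of 25702 IDs).

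The filter kept 10452 genes that reached 10 CPM in 2 or more libraries. After TMM scaling, the quasi-likelihood test of edgeR 4.0.16 was run in R 4.3.3, with 1 coefficient per group, all 7 libraries in the fit and Benjamini-Hochberg adjustment (FDR 0.005). The common dispersion was 0.026. Each SE given with an edgeR value is the absolute log2 fold change divided by the square root of the F statistic of its test. Other methods can give a wider SE. For IL20RB at the early stage it was 0.179 in this way, 0.231 with DESeq2 and 0.275 with limma voom. On simulated counts for early stage against control, with 200 of 10452 genes changed by 2 on the log2 scale, edgeR called 200 changed genes and 1 unchanged gene. The simulated libraries were independent and every gene had the same dispersion of 0.026. The simulation therefore checked the procedure only, and cannot show how reliable calls are between lines of a single dose escalation. Alternatives were DESeq2 1.42.0, limma voom 3.58.1, RLE size factors, library totals, lower filters, fits of only the groups compared, an FDR of 0.05 and leaving out each library, in the last case and in fits of the groups compared with the same 10452 genes.

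The genes and lists were chosen with earlier results of these data known, the lists by textbook membership. Genes named are the 10 receptor genes, listed genes that passed an FDR of 0.005 or were among the 3 most abundant of their list, the 5 most and 3 least correlated with IL20RB, and 3 protein-coding neighbours on each side. The other genes named were added after their values were seen. A few members of the JAK and STAT and marker lists are not reported here and were left out of the list counts. In libraries of 20059656 to 27844799 counts the floor of 3 counts was 0.108 to 0.150 CPM.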

Additional observations from a re-analysis of the deposited data

Results flagged for a closer look

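Among the 44 tested receptor and pathway genes, in 7 (15.9%) the response of late stage lines differed from that of early stage lines at an FDR of 0.05 in the edgeR test of the difference itself, with both groups set against the same controls. None passed 0.005. Late stage lines were higher for IL10RA (difference 1.87 on the log2 scale, FDR = 0.0167), SH2B3 (1.42, FDR = 0.0167), STAT3 (1.09, FDR = 0.0167), IL2RG (0.994, FDR = 0.0193) and IL23A (1.78, FDR = 0.0482), and lower for IFNAR1 (-0.473, FDR = 0.025) and EPOR (-0.609, FDR = 0.0393). Of all genes tested 12.7% passed the same threshold, and so did neighbour and marker genes outside these lists, among them STAG1 and ITGA2B. Without the 200 nM line the 7 differences kept their signs, with FDR values from 0.0845 to 0.266, and 0 of 10452 genes passed 0.05 by edgeR in that fit. Without the 50 nM line IL10RA reached an FDR of 0.00416, and EPOR was at 0.0617. For IL23A the FDR was also above 0.05 without either control line and without any 1 of the early stage lines. EPOR was above 0.05 when any library but the 10 nM line was left out, IFNAR1 without the 15 or the 25 nM line, and IL2RG without the 25 nM line (FDR = 0.0527). Of the 7 genes IL10RA, SH2B3 and STAT3 stayed under 0.05 in the 6 fits that kept the 200 nM line.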

How the results depend on the processing

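No fold change of a receptor or pathway gene called at an FDR of 0.005 with the 10 CPM filter turned its sign. The genes tested with the filter of 1 CPM were refitted with no filter only. With IL20RB included, whose fall was fixed by how it was chosen, the early stage count of receptor genes, 2 of 7, was 5 at an FDR of 0.05 and 1 to 2 when each library was left out in turn. The late stage count of 2 was 1 with limma voom, 1 with only the groups compared in the fit and 1 when any library was left out, with IL4R lost each time. The late against early stage count of 0 was 1 with DESeq2 (IL2RG) and 2 at an FDR of 0.05. With IL4R added, the early stage count was 3 of 7 with DESeq2, 3 of 9 with the filter of 1 CPM and 3 of 10 with no filter. EPOR lost its early stage call without either control line or the 25 nM line. DESeq2 called 3548 genes for early stage and 2503 for late stage, against 1881 and 834. Leaving out the drug naive line left 208 and 33. Where 1 line was left, it was assumed to vary like the other groups. No paired analysis was possible because the replicate numbers only name lines at different doses. Each line has 1 library, so that line, dose and time in culture cannot be told apart, and genes under about 1 CPM rest on few counts.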

Other observations

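With the filter of 1 CPM in 2 libraries, 8 further receptor chains could be tested with edgeR. At an FDR of 0.05, 4 of them (IL12RB2, IL21R, IL2RB and IL9R) were lower and 0 higher at the early stage, where 20.8% of all 14899 genes were lower and 20.1% higher, and 4 (CSF3R, IL12RB2, IL21R and IL9R) were lower and 1 (OSMR) higher at the late stage, where 14.9% were lower and 14% higher. These counts include IL21R and IL2RB, which met the filter through the controls alone, so that the filter itself favoured their fall. Apart from these, IL12RB2 and IL9R were lower at the early stage, and CSF3R, IL12RB2 and IL9R at the late stage. Among the 8, IL6R met the filter through the early stage lines alone. No conclusion is therefore drawn from these counts beside the shares of all genes. The chains below were picked after their values were seen. IL12RB2, the signalling chain of the IL-12 receptor, had 9.85 and 10.9 CPM among controls, 2.30, 1.83 and 2.39 CPM at the early stage and 3.31 and 0.973 CPM in the late stage lines (log2 fold change -2.26, FDR = 0.00579 for early stage and FDR = 0.0148 for late stage). IL21R, which pairs with IL2RG, had 3.86 and 2.41 CPM among controls, at most 0.108 CPM in the early stage lines and 0.144 and 0.463 CPM in the late stage lines, at least 20.9-fold lower at the early stage than the control mean when set against 3 counts in a library. It met the filter through the controls alone, so that no test is given. CSF3R, the receptor of G-CSF, had 6.81 and 8.28 CPM in the controls, 4.39 CPM at 10 nM, 0.790 CPM at 15 nM, 0.498 CPM at 25 nM, 0.960 CPM at 50 nM and 0.463 CPM at 200 nM, an order across lines that resembles that of CSF2RB, with the 10 nM line nearest to the controls (FDR = 0.0813 for early stage and FDR = 0.0403 for late stage). OSMR, which pairs with IL6ST, was the chain that was higher, with 3.95 and 5.53 CPM in the controls, between 3.29 and 4.42 CPM in the early stage lines and 7.30 and 12.2 CPM in the late stage lines (1.06, FDR = 0.0408 for late stage). IL6R had 0.666 and 0.624 CPM in the controls, between 1.22 and 2.48 CPM in the early stage lines and 0.912 and 0.0926 CPM in the late stage lines. IL6R met the filter through the early stage lines alone, so that its test is not given.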
